A study of Mus musculus and Homo sapiens with 27 samples.

Results

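The subject is a group of 10 genes that mark germinal centre B cells: BCL6, LMO2, MME, MYBL1, GCSAM, SERPINA9, RGS13, BCL7A, STAP1 and A4GALT. They were chosen by name on the human lymphochip, an array of spotted cDNA clones made for the study of lymphoid cells. All 10 were found, with 47 of the 15246 features (spots) on the array and 10 of its 4604 named genes. Their RNA was measured in OCI-Ly7, a human cell line of diffuse large B-cell lymphoma of the germinal centre B-cell-like type, according to the labels. On each of 4 arrays, Cy5-labelled RNA of cells carrying human IRF4 in the Vxy expression vector was set against Cy3-labelled RNA of cells carrying the empty vector. The arrays were taken on day 2 (1 array), day 3 (2 arrays, replicates 1 and 2) and day 5 (1 array), and the cells were grown in IMEM with fetal bovine serum. The series' design text speaks of non-transduced control cells and the labels of an empty vector, and the labels were followed here. All values come from 1 lymphoma line, and these are bulk measurements, in which fewer cells of a type and less RNA per cell cannot be told apart. The series also holds arrays of mouse B cells, which are not used here.

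The germinal centre is the part of a lymphoid follicle where activated B cells divide, mutate their antibody genes and are selected. BCL6 is the transcriptional repressor on which it depends, and among the genes that BCL6 represses is PRDM1, which encodes Blimp-1, the factor that drives plasma cell formation. IRF4 is a transcription factor of the interferon regulatory factor family that plasma cells need, and its rise accompanies the exit of B cells from the germinal centre. The comparison asked how germinal centre genes stand in lymphoma cells given an IRF4 vector.

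Each value is a log2 ratio of the Cy5 to the Cy3 channel, and each array was centred on its own median. After centring, 0 is the median ratio of the array, -1 a ratio lower than that by a factor of 2 and 1 a ratio higher by that factor. The medians were -0.26 to -0.08 as deposited, so 0 is not exact equality with the empty-vector cells. A gene's value is the mean of its features. Neither the base of the logarithm nor the direction of the ratio is given in the sources used here; base 2 and IRF4 vector over empty vector were assumed, and with the opposite direction every sign below would turn. The vector's own gene did not settle this. Feature 24729 of IRF4 lay above 0 on every array, at 0.60 on day 2, 0.64 and 0.86 on day 3 and 0.67 on day 5. Features 16614, 22122 and 35916 of IRF4 were above 0 on the first day 3 replicate alone. The mean of the 4 IRF4 features was -0.03 ± 0.30 (SE, n = 4 arrays, limma adjusted p = 0.964). A rise of IRF4 RNA in the cells with the vector was thus not shown by the gene's mean. Which part of the transcript a feature detects is not given in the sources used here.

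The 4 arrays correlated with each other at Pearson's r of 0.31 to 0.46 over all features. The day 3 replicates were less alike (median absolute difference of 0.73 over the named genes) than day 2 and the second day 3 replicate (0.42). The labels carry database numbers that fall into a lower range (day 3 replicate 1 and day 5) and a higher range (day 2 and day 3 replicate 2). Day 2 is only in the higher range and day 5 only in the lower, so range and day are confounded. By the median absolute difference over the named genes (1.02) the lower-range arrays lay furthest apart of all pairs. By correlation they did not, with r of 0.38 against 0.31 for day 2 and the first day 3 replicate. The standard deviation of the deposited values ran from 1.25 to 2.04, the latter on day 5.

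No germinal centre gene passed the test of its ratio against 0. By limma with Benjamini-Hochberg adjustment over all named genes, 0 of the 10 had an adjusted p under 0.05, against 5 of 4604 named genes (0.109%). At an unadjusted p under 0.05 there were 3 of the 10 (A4GALT, SERPINA9 and STAP1), against 23.9% of the named genes. Of these, 2 were lower with IRF4 (background 16%) and 1 was higher (background 7.91%). The 10 means ran from -2.35 to 0.91, with 7 below 0 and a median of -0.28. Over all named genes 56.7% of the means were below 0 and the median was -0.14. A4GALT, SERPINA9, MYBL1 and MME were below 0 on all 4 arrays, as were 21% of the named genes, and STAP1 was above 0 on all 4, as were 17%. With arrays weighted by their agreement, 2 of the 10 passed, both lower with IRF4 (background 3.93%): A4GALT (adjusted p = 0.0275) and SERPINA9 (adjusted p = 0.0462). That fit called 262 named genes, and it gave the second day 3 replicate a weight of 2.99 and the first 0.43. The second replicate is the array where A4GALT (-3.53) and SERPINA9 (-1.59) had their lowest values. There the A4GALT features read -6.56 and -0.49. How far the weighted call of A4GALT rests on the value of -6.56 was not tested. In the unweighted fit the 5 calls over the named genes became 0 or 1 when any array was left out.

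**Figure D1:**
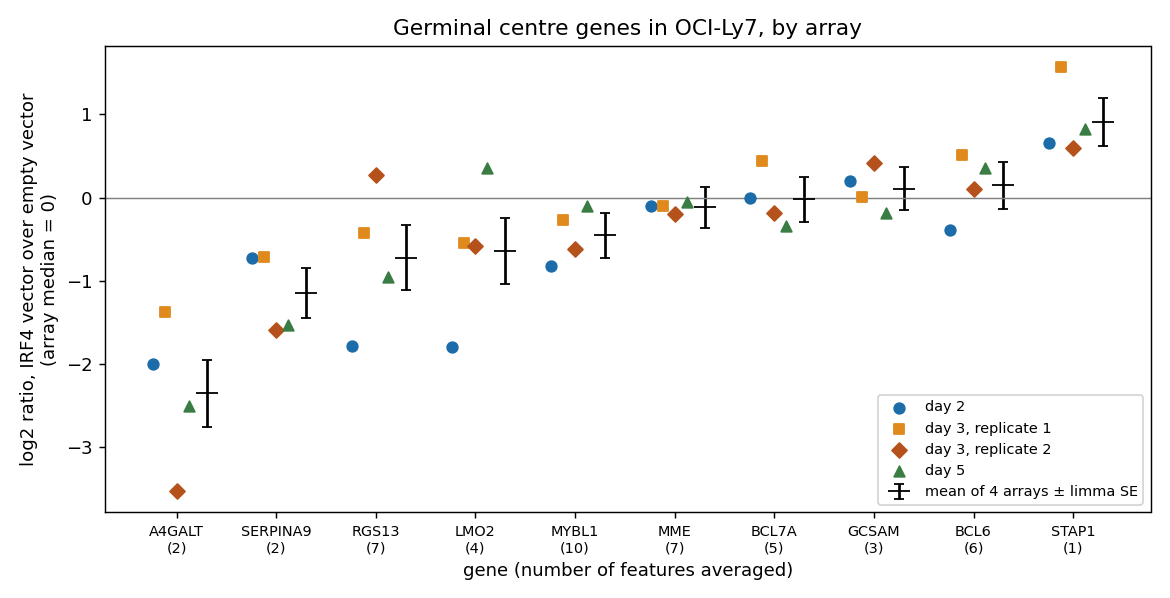
Log2 ratio of IRF4-vector over empty-vector RNA (vertical axis) for the 10 genes (horizontal axis, number of averaged features in brackets), with a point for each of the 4 arrays and a bar for their mean ± limma SE. A4GALT lies lowest with a mean of -2.35, STAP1 highest with 0.91, and BCL6 straddles 0.

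Among the transcription and chromatin factors, BCL6 (Entrez Gene 604) showed no one-sided ratio. It lay at -0.39 on day 2, 0.51 and 0.10 on the day 3 replicates and 0.36 on day 5. The day 2 array was thus below 0 and the other arrays above it. The mean was 0.15 ± 0.28 (SE, n = 4, limma adjusted p = 0.753), and its 95% interval of -0.54 to 0.83 leaves room for a ratio in either direction. The means in the database number ranges were 0.43 (lower) and -0.14 (higher), of opposite sign.

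The 6 features of BCL6 disagreed in sign. Feature 19268 was below 0 on every array, at -1.49 on day 2, -0.80 and -1.61 on day 3 and -1.05 on day 5. Its mean was -1.24 ± 0.31 (SE, n = 4, limma adjusted p = 0.164 over all features). Feature 33451 was above 0 on every array, at 1.70, 0.72, 1.12 and 0.40 in the same order, with a mean of 0.98 ± 0.34 (SE, n = 4, limma adjusted p = 0.196). Of the 6 feature means, 3 were below 0 and 3 above. The sign of a BCL6 ratio on these arrays thus depends on the feature that is read.

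LMO2 (Entrez Gene 4005), which encodes a LIM-domain bridging protein of transcription factor complexes, had the widest gap of the 10 between days 2 and 5. It lay at -1.79 on day 2, -0.55 and -0.58 on day 3 and 0.36 on day 5. In the gene mean the day 3 replicates differed by 0.03, while days 2 and 5 lay 2.15 apart. Single features differed more between the day 3 replicates, in opposite directions. Feature 17218 read 0.10 and -1.27, feature 28979 -0.80 and 0.60, feature 27374 -1.16 and -0.85, and feature 19238 -0.34 and -0.80. The mean over the 4 arrays was -0.64 ± 0.39 (SE, limma adjusted p = 0.340). It was -0.09 in the lower database number range and -1.19 in the higher. With the day 3 replicates, 1 in each range, nearly equal in the gene mean, the gap between the ranges is that between days 5 and 2. Feature 17218 had the lowest mean of its 4 features (-0.97) and feature 28979 the highest (0.19).

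MYBL1 (Entrez Gene 4603), the MYB-family transcription factor also called A-MYB, is the gene with most features. Its value was -0.82 on day 2, -0.27 and -0.62 on day 3 and -0.10 on day 5. All 4 arrays were below 0, with a mean of -0.45 ± 0.27 (SE, limma adjusted p = 0.329). Of its 10 features, 9 had a mean below 0 and 3 were below 0 on every array. The lowest was feature 29886, at -2.61 on day 2, -1.30 and -1.16 on day 3 and -1.29 on day 5. Feature 19272 stood far above the rest with 2.51, 5.52, -0.71 and 3.51 on the same arrays and a mean of 2.71. The median of the 10 feature means was -0.61.

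BCL7A (Entrez Gene 605), a subunit of the SWI/SNF chromatin remodelling complexes, lay close to 0. Its values were 0.00 on day 2, 0.44 and -0.18 on day 3 and -0.34 on day 5, with a mean of -0.02 ± 0.27 (SE, limma adjusted p = 0.970). Of its 5 features, 2 were below 0 on every array and 2 above 0 on every array. Feature 26608 had the lowest mean (-0.78) and feature 16720 the highest (0.89).

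The cell surface genes differed from each other. MME (Entrez Gene 4311) encodes the membrane metallopeptidase CD10, by which germinal centre lymphomas are typed. Its values were -0.10 on day 2, -0.10 and -0.20 on day 3 and -0.06 on day 5, and the mean was -0.11 ± 0.25 (SE, limma adjusted p = 0.782). All 4 arrays were below 0 by little, and with the median of the features in place of their mean the value was 0.01. Of the named genes 51.2% had a lower mean than MME, so its ratio was close to the median of the named genes. The 7 features of MME were spread widely behind this steady average. Feature 15864 was below 0 throughout (-1.80, -0.99, -1.27 and -1.42 for day 2, the day 3 replicates and day 5). Feature 24265 was above 0 throughout (0.49, 2.09, 0.63 and 1.22 in the same order).

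A4GALT (Entrez Gene 53947) had the lowest ratio of the group. It encodes the galactosyltransferase that makes the glycolipid Gb3, known on germinal centre B cells as CD77. It lay at -2.00 on day 2, -1.38 and -3.53 on day 3 and -2.50 on day 5. All arrays were well below 0, and the day 3 replicates lay 2.15 apart. Its mean of -2.35 ± 0.40 (SE, n = 4) is a level 5.10-fold lower with IRF4, with a 95% interval of -3.33 to -1.37 on the log2 scale. The limma p was 0.00103 before and 0.108 after adjustment, so the gene is not called. Only 3.54% of the named genes had a lower mean. Both of its features were below 0 on all 4 arrays. Feature 24928 averaged -1.65, and feature 33892 averaged -3.05 with a single very low value of -6.56 on the second day 3 replicate. Leaving out all values more than 6 log2 units from 0, the gene lay at -1.59, and with the lower and higher database number ranges taken apart at -1.94 and -2.76.

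SERPINA9 (Entrez Gene 327657), also named centerin, encodes a serine protease inhibitor found in germinal centre B cells. Its gene value was -0.72 on day 2, -0.72 and -1.59 on day 3 and -1.53 on day 5. The mean was -1.14 ± 0.30 (SE, n = 4, limma adjusted p = 0.137), 2.21-fold lower with IRF4, and the 95% interval was -1.87 to -0.41. It was nearly the same in the lower (-1.13) and the higher (-1.16) range of database numbers. The value came mainly from 1 of its 2 features. Feature 35194 measured -0.45 on day 2, -0.92 and -2.88 on day 3 and -4.16 on day 5, whereas feature 24376 measured -0.999, -0.52, -0.30 and 1.09. On day 5 the pair pointed in opposite directions.

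Of the signalling genes, RGS13 (Entrez Gene 6003) encodes a regulator that shuts off G proteins below chemokine receptors. It lay at -1.78 on day 2, -0.42 and 0.27 on day 3 and -0.95 on day 5, with a mean of -0.72 ± 0.39 (SE, limma adjusted p = 0.289). The second day 3 replicate was the only array above 0. Its 7 features covered the widest span of the group. Feature 29844 was below 0 on every array, at -2.40, -2.14, -3.02 and -4.78 from day 2 to day 5, and averaged -3.08 ± 0.51 (SE, limma adjusted p = 0.142 over all features). Feature 24476 reached 2.32 and 4.61 on the day 3 replicates and lay at -0.16 and -1.66 on days 2 and 5.

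GCSAM (Entrez Gene 257144), a germinal centre adaptor also known as HGAL, lay at 0.20 on day 2, 0.01 and 0.41 on day 3 and -0.19 on day 5. These values straddle 0, and the mean was 0.11 ± 0.26 (SE, limma adjusted p = 0.798). Feature 29804 had the lowest mean of its 3 features (-0.41) and feature 33255 the highest (0.73). STAP1 (Entrez Gene 26228), an adaptor of tyrosine kinase signalling in B cells, was the member with the highest mean. It lay at 0.65 on day 2, 1.57 and 0.60 on day 3 and 0.82 on day 5, with a mean of 0.91 ± 0.29 (SE, n = 4), 1.88-fold higher with IRF4. All 4 arrays were above 0, but the limma adjusted p was 0.162, and the gene rests on a single feature.

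Features of the same gene often disagreed. Of the 9 genes with at least 2 features, 7 had feature means on both sides of 0, against 54% of the 2674 such genes in all. The median range from lowest to highest feature mean was 1.92 in the group and 1.05 over all such genes. The group has more features per gene (46 in 9 genes, against 8239 in 2674). More features widen a range and also make means on both sides of 0 more likely. The standard deviation of the feature means, which grows less with their number, had a median of 0.90 against 0.59. Over all such genes the intraclass correlation of feature means, which is 1 when features of a gene are identical, was 0.22. These are descriptions across genes, and the difference between the group and the other genes was not tested.

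**Figure D2:**
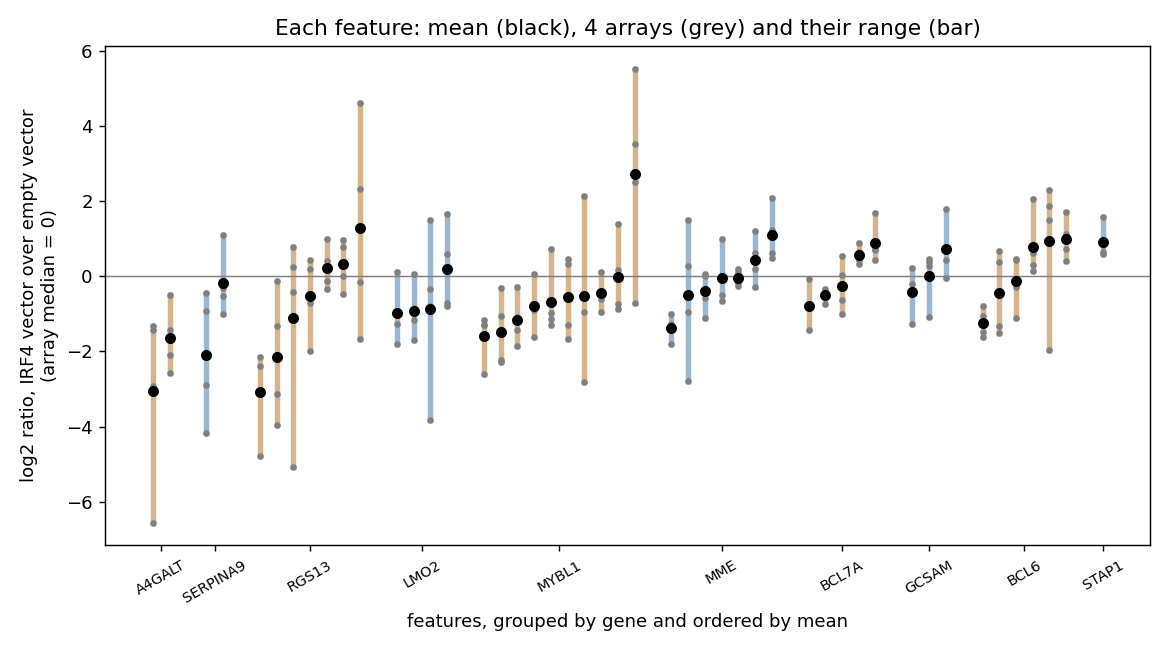
Log2 ratio (vertical axis) of each of the 47 features, grouped by gene (horizontal axis), with the mean over 4 arrays in black, the single arrays in grey and a bar for their range. Features of MYBL1 run from a mean of -1.59 to 2.71 and those of RGS13 from -3.08 to 1.28, while both A4GALT features lie below 0.

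Counted singly, 32 of the 47 features had a mean below 0, against 51.2% of the 10169 features with a single gene symbol. Below 0 on all 4 arrays were 12 of the 47 (background 18.5%), and above 0 on all 4 were 6 (background 19.6%). At an unadjusted limma p under 0.05 there were 10 lower features (background 12.7%) and 5 higher ones (background 8.97%). With adjustment over all 15246 features limma called 0 of the 47 and 0% of all features, while 22.5% of all features had an unadjusted p under 0.05. Features of a gene share its RNA and array and are not independent. The number of the 47 below 0 was 31 on day 2, 28 and 27 on day 3 and 24 on day 5. Over all features with a single gene symbol 51.8%, 49.6%, 51.8% and 51.3% were below 0 on the same arrays. On day 5 the share of the 47 was 51.1%. The change of this count over the days was not tested.

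No gene of the group passed the test of a change along the days. A slope on day was fitted over the 4 arrays, and limma called 0 of the 10 and 0% of the 4604 named genes, with 12.3% at an unadjusted p under 0.05. LMO2 had the largest slope at 0.66 ± 0.27 log2 units per day (SE, unadjusted p = 0.0468, adjusted p = 0.396). It was the only one of the 10 at an unadjusted p under 0.05. Of its 4 features, 3 were higher on day 5 than on day 2, the most by 5.31 (feature 19238, from -3.81 to 1.49), while feature 17218 differed by -0.87. MYBL1 had 8 of 10 features higher on day 5 than on day 2, and a slope of 0.23 ± 0.25 (SE, adjusted p = 0.873). BCL6 had 4 of 6 features higher, and a slope of 0.20 ± 0.27 (SE, adjusted p = 0.925). Higher on day 5 were also 5 of 7 features of RGS13, 3 of 5 of BCL7A and the only one of STAP1. In the other genes it was 3 of 7 for MME, 1 of 3 for GCSAM and 1 of 2 each for A4GALT and SERPINA9. The share over all features was not computed, so these counts have no background. SERPINA9 had the lowest slope, -0.25 ± 0.28 (SE, adjusted p = 0.868). The count over the named genes was 277 without day 2, 152 without the second day 3 replicate, 97 without day 5 and 0 without the first day 3 replicate. None of these fits called a gene of the 10, whose lowest adjusted p over them was 0.320 (LMO2 without the first day 3 replicate). Days 2 and 5 have 1 array each, so their difference has no replicate of its own.

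**Figure D3:**
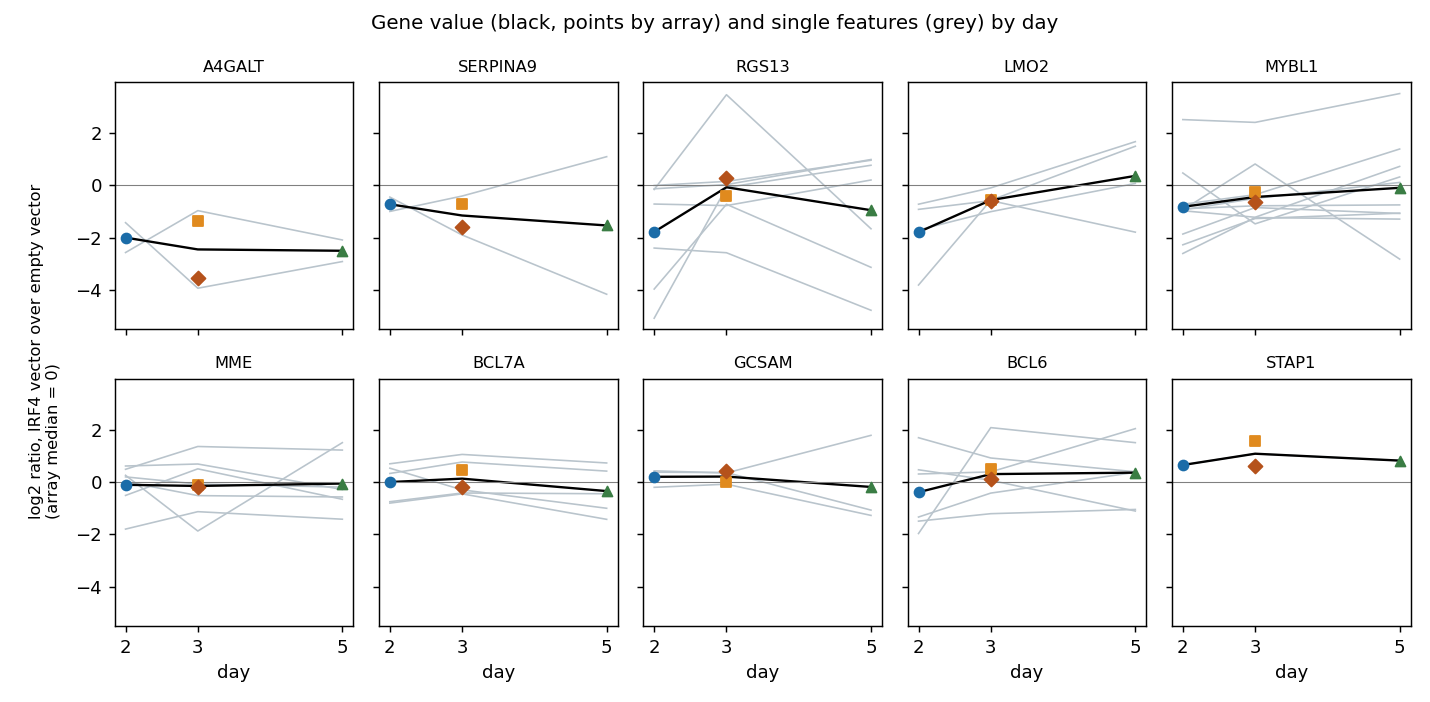
Log2 ratio (vertical axes) against day 2, 3 and 5 (horizontal axes) for each gene, with the 4 arrays as coloured points (orange and red-brown for the day 3 replicates), the line through the day means in black and single features in grey. LMO2 runs from -1.79 on day 2 to 0.36 on day 5, and the day 3 replicates of A4GALT lie 2.15 apart.

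By the distance of their values over the 4 arrays, the genes most like BCL6 were CLEC2B (0.17), RPS6KB1 (0.22), RCBTB1 (0.24), PMS1 (0.25) and CCN1 (0.25). They were chosen among 2665 other genes with at least 2 features. The likeness is a description over 4 points near 0.

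Other genes of the germinal centre were read from a list of 32 further names, of which 23 were measured. Of these, 17 were below 0 and 6 above with a median of -0.40 (56.7% below 0 and a median of -0.14 over all named genes), and 0 passed the test by limma. At an unadjusted p under 0.05 there were 7 lower and 0 higher. Over all named genes those shares were 16% and 7.91%. ASB13, a subunit of a ubiquitin ligase, lay at -1.72 ± 0.29 (SE, adjusted p = 0.104) and between -2.11 and -1.21 on the 4 arrays. KLHL6, a ubiquitin ligase adaptor needed for germinal centres, lay at -1.05 ± 0.25 (SE, adjusted p = 0.130), but at -0.35 with the median of its features. POLH, the polymerase eta of somatic hypermutation, lay at -1.08 ± 0.40 (SE, adjusted p = 0.184) and above 0 on the first day 3 replicate. With array weights ASB13 (adjusted p = 0.0249) and KLHL6 (adjusted p = 0.0395) passed.

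Genes reported to be repressed by BCL6 had a median of 0.06, with 11 of 20 above 0 and 9 below (56.7% of all named genes were below 0). By limma 0 passed the test. At an unadjusted p under 0.05 there were 0 lower and 4 higher, with backgrounds of 16% and 7.91%. PRDM1 lay at 1.51 on day 2, 1.33 and 1.64 on day 3 and 2.84 on day 5. Its mean of 1.83 ± 0.34 (SE) had an adjusted p of 0.119, and of 0.0292 with array weights. The mean log2 ratio of BCL6 was 0.15. GADD45G, a stress-response gene, lay at 1.60 ± 0.37 (SE, adjusted p = 0.130, and 0.0296 with array weights). The chemokine gene CCL3 lay at -0.90 ± 0.59 (SE, adjusted p = 0.361), with -3.12 on day 5 and a mean of -0.16 without that array.

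The plasma cell list had a median of 1.45, with 9 of 12 genes above 0 and 3 below (56.7% of all named genes were below 0). PRDM1 is counted both here and among the genes repressed by BCL6. At an unadjusted p under 0.05 the plasma cell list counted 9 higher genes (background 7.91%) and 1 lower (background 16%). The 3 genes below 0, named after their values were seen, were SLAMF7 (-1.86), MZB1 (-0.23) and SDC1 (-0.078). TNFRSF17, the receptor BCMA of plasma cells, was higher with IRF4 at 3.36 ± 0.31 (SE, limma adjusted p = 0.0455), and the call was lost when any array was left out (adjusted p of 0.149 to 0.184); it was kept in 6 of 16 alternatives. JCHAIN, the joining chain of secreted antibody, lay at 2.50 ± 0.40 (SE, adjusted p = 0.102), and ELL2, an elongation factor of antibody secretion, at 2.88 ± 0.85 (SE, adjusted p = 0.154). With array weights JCHAIN (adjusted p = 0.0292) and ELL2 (adjusted p = 0.0420) passed. ELL2 ran from 0.67 on the first day 3 replicate to 5.88 on day 2, lay at 1.88 without day 2, and averaged 1.09 in the lower and 4.67 in the higher database number range. The medians of the plasma cell list by array were 0.75 on day 2, 1.49 and 1.15 on day 3 and 1.48 on day 5. Those of the 10 germinal centre genes were -0.56, -0.19, -0.19 and -0.14, lower on each array, and the difference between the lists was not tested.

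Lists of other cell states and types gave the following, against 56.7% of all named genes with a mean below 0. Of 20 activated B-cell genes 11 were below 0 (median -0.01), with BATF, an AP-1 factor, at -1.74 ± 0.52 (SE, adjusted p = 0.155), TNFAIP3, an inhibitor of NF-kB, at -0.53 and the phosphatase gene PTPN1 at 0.60. Of 13 mature B-cell genes 9 were below 0 (median -0.42), among them CD72 (-2.70), CD79B, which signals for the B-cell receptor (-1.86), and BTK, a kinase below it (-1.56). Of the 4 above 0, MS4A1, which encodes CD20 of the B-cell surface, lay at 1.05 and CD79A, the partner of CD79B, at 0.56 (both named after their values were seen). BTK lay at -0.37 with the median of its features, and CD72 at -1.24 without values more than 6 log2 units from 0. Below 0 were 12 of 14 T and NK genes (median -0.46) and 6 of 8 myeloid genes (median -0.26). In these lists 0 genes passed the test by limma, and unadjusted p under 0.05 counted 1 activated, 5 mature B, 1 T and NK and 1 myeloid gene that were lower (background 16%) and 1 mature B gene that was higher (background 7.91%). With array weights CD79B (adjusted p = 0.0292), BTK (adjusted p = 0.0405), the T-cell gene LCK (adjusted p = 0.0292) and the myeloid gene CD14 (adjusted p = 0.0306) passed as well. CD72 passed only in the lower database number range (limma adjusted p = 0.00798), a fit of 2 arrays. On these CD72 lay far apart, at -0.86 (day 3 replicate 1) and -5.25 (day 5). The same fit called 23 higher and 319 lower named genes. T and NK markers are genes that a B-cell line should hold at low levels. They were led by LCK (-1.38), CD3D (-1.04) and CD2 (-1.02), and the myeloid genes by CD14 (-1.30), FCER1G (-0.77) and MPO (0.77). Without day 5, CD3D lay at -0.35, CD2 at -0.55 and FCER1G at -0.27, and CD2 was above 0 on both day 3 replicates. By array the T and NK medians were -0.22, -0.26, -0.06 and -1.13 from day 2 to day 5, above those of the 10 germinal centre genes on day 2 and the second day 3 replicate and below them on the other 2 arrays. Ratios give no levels, so it was not possible to see which markers were near background, and the part of weak signals in the germinal centre ratios was not tested.

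**Figure D4:**
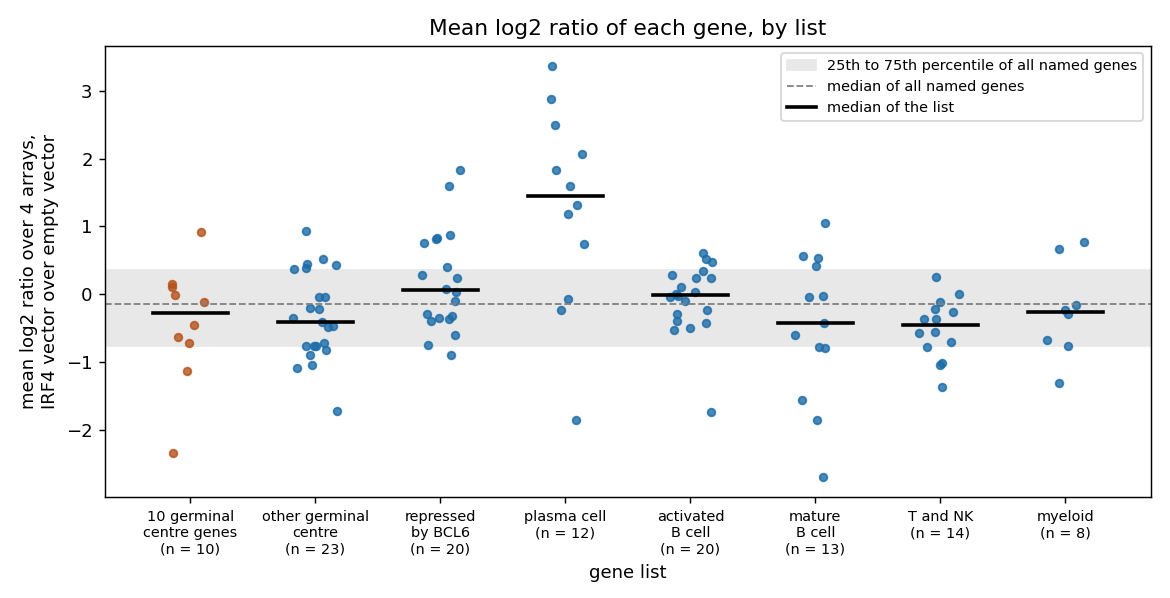
Mean log2 ratio over 4 arrays (vertical axis) of each measured gene in 8 lists (horizontal axis), with the list's median as a black bar, the median of all named genes dashed and their 25th to 75th percentile shaded. The 10 germinal centre genes have a median of -0.28, the plasma cell list 1.45 and the T and NK list -0.46.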

How the data were processed

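The authors deposited 1 ratio of the channels per feature and array, read here as log2 of Cy5 over Cy3 (base and direction assumed), with no missing value on the 4 human arrays. How the images were read, background-corrected, normalized and filtered is not given in the sources used here, and single-channel signals were not analysed here. Per the labels' protocols, Trizol was used for total RNA and reverse transcription for dye labelling. Gene symbols came from the platform annotation (10169 features with 1 symbol, 4 with several, 5073 with none). Arrays were centred on their median (-0.26 to -0.08 as deposited), and features of a gene were averaged. The mean over the 4 arrays was tested against 0, and a slope on day against 0, with limma 3.58.1 in R 4.3.3 (lmFit, eBayes, 2-sided, Benjamini-Hochberg over all named genes or all features, threshold 0.05). SE are moderated. The script was tested on simulated data. With a single dye orientation, dye bias and ratio of a gene cannot be told apart, and the control's own spread is unknown. The number of arrays limits the precision. The 10 genes, the lists and the tests were chosen with earlier results of these data known. Named were all 10 genes with their highest and lowest features, IRF4, the called or 3 most extreme genes of each list, and the 5 genes nearest to BCL6. Feature 19238 was added after its values were seen. Alternatives varied centring, scaling, feature averaging, filters, variance model and arrays.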

Additional observations from a re-analysis of the deposited data

Results flagged for a closer look

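BCL6, LMO2 and GCSAM each had a day whose only array lay on the other side of 0 from both day 3 replicates. BCL6 was 0.69 lower on day 2 than on day 3 (a difference of -0.69), LMO2 was higher on day 5 than on day 3 by 0.93, and GCSAM differed by -0.40 between day 5 and day 3. These differences were not tested, since days 2 and 5 have 1 array each. With 1 array set against 2, opposite signs are easily met in genes near 0. Over the 4 arrays, no gene of the group had an array apart from the others by Dixon's test.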

How the results depend on the processing

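The 16 alternatives of the gene comparison kept the sign of A4GALT (-2.85 to -1.59, adjusted p from 0.0275 to 0.259), SERPINA9, STAP1 (15 alternatives), LMO2, MYBL1 and RGS13. The count of the 10 genes past the threshold was 2 with array weights and 0 otherwise. Signs turned as follows. As deposited, BCL6 lay at -0.047 and GCSAM at -0.083, and 9 of the 10 genes were below 0, with a median of -0.33 over all named genes. Centred over the named features, BCL7A lay at 0.0047. With the median of features, MME lay at 0.010 and GCSAM at -0.12. In the lower database number range GCSAM lay at -0.087, BCL7A at 0.050 and IRF4 at 0.18, and in the higher BCL6 lay at -0.14 and CCL3 at 0.037. Feature 28979 lay at -0.0055 as deposited. Without each array in turn, IRF4 ran from -0.26 to 0.072, BCL7A from -0.17 to 0.089, feature 24376 from -0.61 to 0.092 and feature 28979 from -0.31 to 0.52.

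The 5 calls over all named genes (2 higher, 3 lower) became 94 after quantile normalization (21 higher, 73 lower), 262 with array weights (81 and 181), 342 in the lower database number range (23 and 319), 1 as deposited, centred over the named features or with the median of features, and 0 with a trended robust variance, in the higher range or with the day 3 arrays as 1 value. Without each array it was 0 to 1. The count of features was 4 as deposited and 0 otherwise. The cause was not tested.

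The change per day turned for STAP1 as deposited (-0.0043) and after quantile normalization (-0.066), where SERPINA9 lay at 0.12 and A4GALT at 0.38, and for MME with the median of features (-0.16). Without each array it ran from -0.44 to 1.71 for RGS13, -0.13 to 0.43 for STAP1, -0.044 to 0.046 for MME, -0.20 to 0.0087 for GCSAM and -0.24 to 0.13 for BCL7A, and its count of calls from 0 to 277. No paired analysis was possible because the days share fewer than 2 replicate numbers; each ratio already sets both cell populations against each other within 1 array. Signal over background, which limits the precision of dim features, was not analysed here.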
